A study of Rattus norvegicus with 2 samples.

Results

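The insulin-like growth factor (IGF) family was examined as 9 listed genes: the ligands Igf1 and Igf2, the receptors Igf1r and Igf2r, and the binding proteins Igfbp2, Igfbp3, Igfbp4, Igfbp5 and Igfbp6. A probe set was taken for a gene when the platform annotation paired it with that symbol alone. This gave 23 of 8740 non-control probe sets, for 8 of the 9 genes, on an array that held 4736 such symbols. Igfbp4 was not analysed here because no probe set was paired with it. Endothelial cells of the endocardium, the inner lining of the heart chambers, and of the aorta came from the same 2 rats. The cells were pooled by origin, cultured for 2 passages with conditions and confluence matched as closely as possible, and their total RNA was read on Affymetrix rat U34A arrays. There was 1 endocardial array and 1 aortic array, with no strain, age or treatment in the labels. No difference could therefore be set against a spread between cultures, and no test across samples was possible.

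IGF1 and IGF2 are secreted peptides that signal growth and survival through the IGF1 receptor, a tyrosine kinase of the insulin receptor family. The IGF2 receptor has no kinase; it takes up IGF2 for degradation and carries lysosomal enzymes tagged with mannose phosphate. Binding proteins hold the peptides in blood and matrix, and endothelial cells are known both to secrete them and to respond to IGF1.

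Each array gave 1 intensity per probe set, on a linear scale that can fall below 0. Both arrays were scaled to the same trimmed mean. A floor was placed at 635.4, the median over all scaled values; lower readings were raised to it, and a probe set was kept when it exceeded the floor on at least 1 array. Intensities of family members are given as deposited, and those of other genes and all ratios after scaling, which moved no value by more than 0.06%. A second, higher limit was the brightest of 38 background control probe sets (1742), which should detect no rat transcript. Of these controls, 6 on the endocardial and 7 on the aortic array exceeded the floor, so a reading above the floor can still be background. Against the floor 2935 genes were measured, with a median log2 ratio, endocardial over aortic, of -0.02. Where both values of several probe sets of a gene exceeded the floor, their log2 ratios had an SD of 0.39 (625 genes), and where both exceeded the highest background control an SD of 0.30 (385 genes). These SDs describe probe sets and not cultures.

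The endocardial array was brighter for the ligand Igf1, 2.59-fold with the 1 probe set above the floor on both arrays. Igfbp3, the main carrier of IGFs in blood, was also brighter there, at least 2.56-fold against the floor and 2.18-fold against the highest background control. Igfbp6, a binding protein that prefers IGF2, was 3.41-fold brighter on the aortic array. The other 5 measured genes did not pass 2-fold, with log2 ratios from 0.18 (Igf2) to 0.71 (Igfbp5), of which that of Igfbp2 (0.18) is a lower bound. Thus 2 of 8 members were higher by 2-fold or more, against 5.93% of all measured genes, and 1 of 8 was lower by as much, against 4.16%. Taking the highest background control as the floor, the same 3 genes passed 2-fold among 5 measured members. With that floor 3.99% of 1904 genes were higher and 2.36% lower. Igfbp3 was then kept through the endocardial array alone, so its ratio could only be positive. The member genes had a median log2 ratio of 0.37. All 3 directions are those of 1 pair of arrays.

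**Figure D1:**
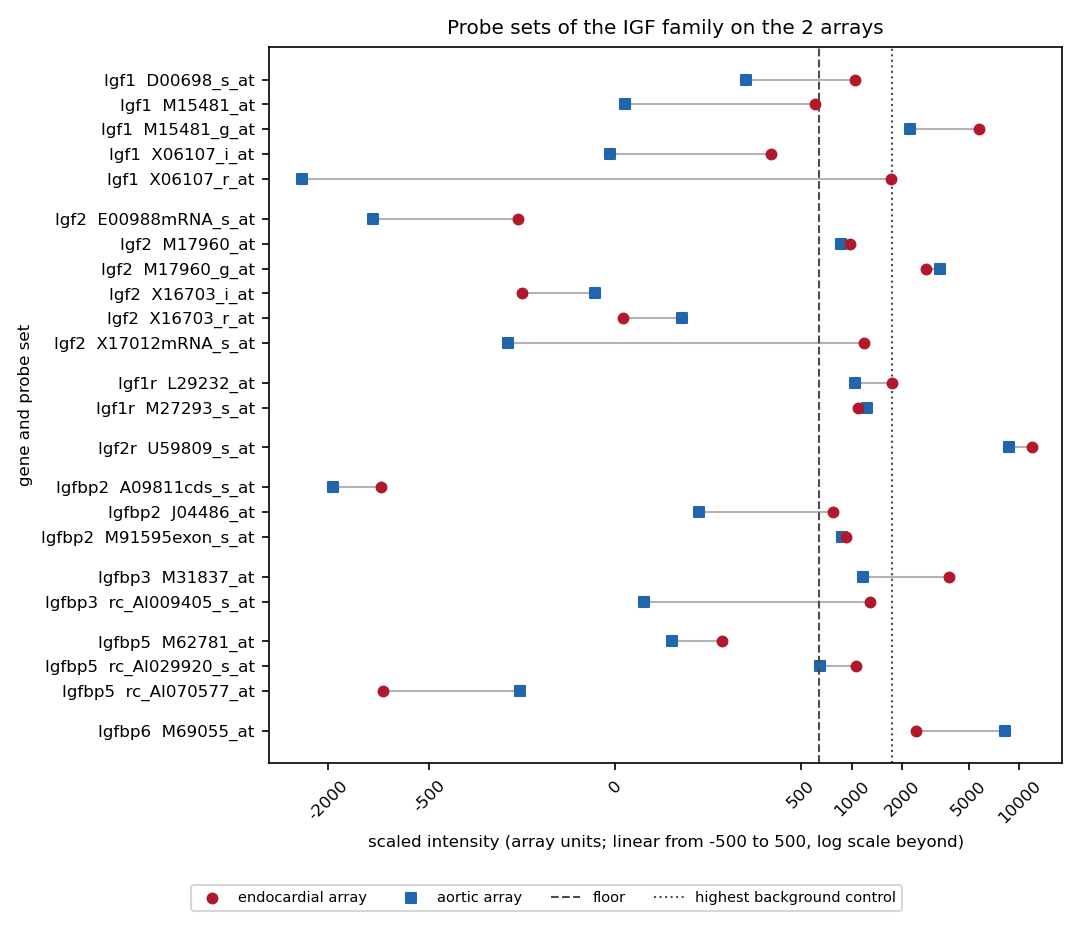
Scaled intensity (horizontal axis, array units, linear between -500 and 500 and logarithmic beyond) of the 23 IGF family probe sets for endocardial cells (red circles) and aortic cells (blue squares), with the floor (dashed) and the highest background control (dotted) as vertical lines. On both arrays 4 probe sets lie above the highest background control, for Igf1, Igf2, Igf2r and Igfbp6.

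The promoters of the 3 genes past 2-fold are shown to place the genes whose readings on the 2 arrays differed by that much. The RefSeq sequences of build GRCr8 run 5′ to 3′ on the gene's strand and end just before the listed start. The Igf1 stretch is chr7:24172282-24172531 on the plus strand, the Igfbp3 stretch chr14:86277945-86278194 on the minus strand and the Igfbp6 stretch chr7:135154669-135154918 on the plus strand. Capitals mark matches on either strand to any of 7 motifs. These were the TATA box, spelled TATAAA, and its variant form, spelled TATATA, which was added after the sequences had been seen. The others were the CCAAT box, named for its letters, and the GC box, to which Sp1 binds, with the letters GGGCGG. The core of the hypoxia response element was searched as ACGTG. The element of STAT factors was searched as TTCNNNGAA and that of forkhead factors, which insulin and IGF signalling restrain, as GTAAACA.
Igf1: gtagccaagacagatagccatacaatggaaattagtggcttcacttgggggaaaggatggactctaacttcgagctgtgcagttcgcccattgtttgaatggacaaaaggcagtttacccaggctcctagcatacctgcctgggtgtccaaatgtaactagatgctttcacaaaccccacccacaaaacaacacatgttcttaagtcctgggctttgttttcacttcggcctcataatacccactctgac
Igfbp3: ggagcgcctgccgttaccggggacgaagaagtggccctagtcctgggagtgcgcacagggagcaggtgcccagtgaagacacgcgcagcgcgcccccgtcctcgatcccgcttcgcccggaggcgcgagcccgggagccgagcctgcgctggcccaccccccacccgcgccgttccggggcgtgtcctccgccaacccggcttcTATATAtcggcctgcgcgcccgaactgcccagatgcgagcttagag
Igfbp6: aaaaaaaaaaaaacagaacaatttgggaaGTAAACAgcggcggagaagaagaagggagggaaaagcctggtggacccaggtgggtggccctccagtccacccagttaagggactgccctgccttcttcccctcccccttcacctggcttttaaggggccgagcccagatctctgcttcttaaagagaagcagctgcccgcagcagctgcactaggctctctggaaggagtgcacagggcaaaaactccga

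The Igf1 stretch held none of these letters and had a GC content of 46.8%, against a median of 51.2% over 33469 promoters of the same length. The Igfbp3 stretch was richer in GC, at 71.6%, and held the TATA variant from -46 to -41, counted from the start, which 5.45% of all promoters hold. In the Igfbp6 stretch, with 54.8% GC, the forkhead letters stood from -221 to -215, and 3.21% of all promoters hold them. The TATA box occurred in 12.9% of promoters, the GC box in 30.5%, the hypoxia core in 16.6% and the STAT element in 7.67%, and these stretches held none of them. The CCAAT box, which they also lacked, was found in 11385 of the 33469 promoters. No motif overlapped another in them. A match describes letters only. Promoter activity was not measured.

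Among the ligands, Igf1 was higher on the endocardial array with the 1 of its 5 probe sets that could be compared. Probe set M15481_g_at had an intensity of 5743.6 on the endocardial and 2214.8 on the aortic array, both above the highest background control, a ratio of 2.59. No other Igf1 probe set exceeded the floor with both readings, so both the direction and the size of the difference rest on it. D00698_s_at read 1047.9 on the endocardial and 349.9 on the aortic array, which is at least 1.65-fold against the floor. X06107_r_at read 1725.3 on the endocardial and -2883.6 on the aortic array, at least 2.71-fold against the floor but with no value above the highest background control. Both were kept through the endocardial array alone, so their ratios could only be positive and say nothing on the direction. The remaining pair, M15481_at (601.8 on the endocardial and 26.4 on the aortic array) and X06107_i_at (418.4 and -12.9, in the same order), were under the floor on both arrays. M15481_at and M15481_g_at are named for the same deposited transcript, as are the X06107 probe sets, so the 5 are not independent readings.

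Igf2, the ligand most active in fetal growth, showed no common direction. Its brightest probe set, M17960_g_at, had 2783.1 on the endocardial and 3384.3 on the aortic array, a log2 ratio of -0.28. M17960_at, named for the same transcript, had 971.6 on the endocardial and 859.3 on the aortic array, a log2 ratio of 0.18. X17012mRNA_s_at had 1181.0 on the endocardial and -289.1 on the aortic array, at least 1.86-fold higher against the floor. The median of these 3 was 0.18, and its sign turned to -0.28 with the brightest probe set, with a floor at either the highest background control or the 75th percentile, and with no floor. Both values were smaller than the SD of 0.39 among probe sets of a gene. The other 3 Igf2 probe sets read between -1085.9 and 178.0.

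The receptors lay within 2-fold. Igf2r, the clearance receptor, was well above the highest background control on both arrays. Its single probe set had 11923.4 on the endocardial and 8642.3 on the aortic array, a log2 ratio of 0.46. Igf1r, the signalling receptor for both ligands, had 1728.1 on the endocardial and 1045.2 on the aortic array with probe set L29232_at, a log2 ratio of 0.72. With M27293_s_at it had 1092.2 on the endocardial and 1226.5 on the aortic array, a log2 ratio of -0.17. The Igf1r probe sets thus disagreed in direction, and all 4 values were under the highest background control, so equal or different Igf1r expression was not detectable with these arrays.

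The binding proteins went both ways. Igfbp6 had a single probe set, with 2410.1 on the endocardial and 8206.4 on the aortic array. Both values exceeded the highest background control, and the log2 ratio of -1.77 was the 26th lowest of 2935 genes. Among the members Igfbp6 was the 1 gene with a median lower on the endocardial array, and it could not be checked with a second probe set.

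Igfbp3 was higher on the endocardial array with the 1 of its 2 probe sets that exceeded the floor with both readings. M31837_at had 3797.7 on the endocardial and 1172.5 on the aortic array, a ratio of 3.24, or at least 2.18 when the aortic value is taken at the highest background control. The second, rc_AI009405_s_at, had 1292.4 on the endocardial and 78.0 on the aortic array, at least 2.03-fold against the floor, a ratio that could only be positive because this probe set was kept through the endocardial array alone. With the floor at the 75th percentile of all values (2576) the difference was bounded at a log2 ratio of 0.56 and no longer passed 2-fold.

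Igfbp5, which binds extracellular matrix, and Igfbp2 were dim. Igfbp5 was measured with 1 of 3 probe sets, at 1054.2 on the endocardial and 643.1 on the aortic array, where it lay just above the floor, for a log2 ratio of 0.71. Its others read 286.3 and -942.0 on the endocardial array, and 153.7 and -256.1 on the aortic array in the same order, with opposite directions. Igfbp2 had 918.9 on the endocardial and 873.9 on the aortic array with M91595exon_s_at, a log2 ratio of 0.07. With J04486_at it had 775.3 on the endocardial and 224.0 on the aortic array, at least 1.22-fold higher, and the remaining probe set was below 0 on both arrays. Neither gene exceeded the highest background control, and a difference in either was not detectable with these arrays. Igfbp2 and Igfbp5 are neighbours in the RefSeq gene table, with 0 protein-coding genes between them. Igfbp3 likewise neighbours Igfbp1, a binding protein regulated by insulin in liver, whose probe set read -1748.1 on the endocardial and -2350.6 on the aortic array.

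**Figure D2:**
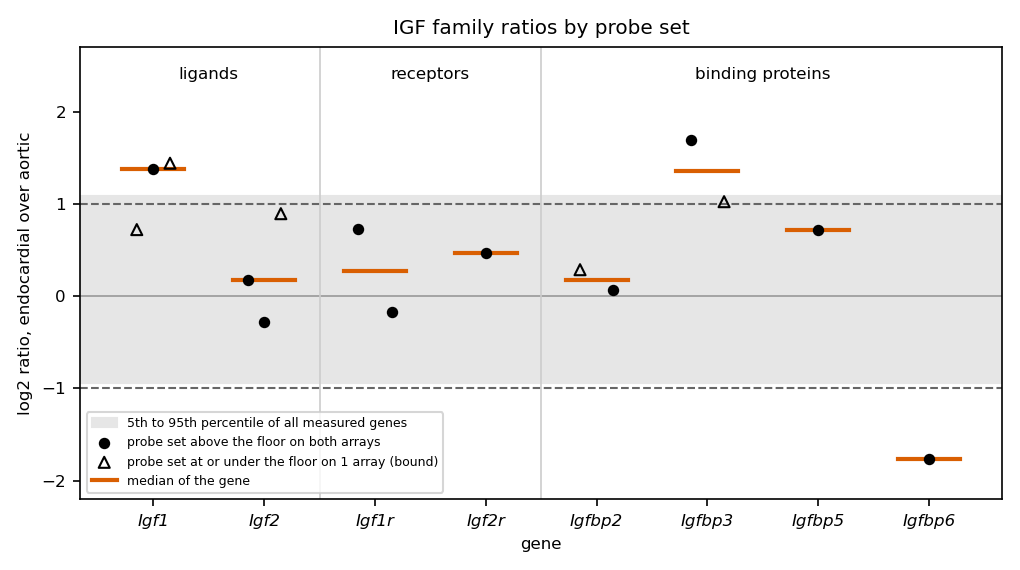
Log2 ratio, endocardial over aortic (vertical axis), of the 15 kept probe sets of the IGF family by gene (horizontal axis), with the gene median as an orange bar. Filled points had both readings above the floor and open triangles are bounds; dashed lines mark 2-fold and the grey band spans the 5th to 95th percentile of all measured genes. Igf1 (1.37) and Igfbp3 (1.36) lie above 2-fold and Igfbp6 (-1.77) below it.

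Over single probe sets, the endocardial value was the higher in 17 of 23, or 73.9%, against 50.8% of all non-control probe sets. Part of that count lay in readings with no usable signal. Of 7 member probe sets at or below 0 on the aortic array, 5 were higher on the endocardial array, where 78.6% of all 2253 such probe sets were. Of 10 member probe sets with both readings above the floor, 7 were higher on the endocardial array, against 46.0% of 3932 probe sets. A further 5 passed through the endocardial array alone and could only give a positive ratio, and 0 passed through the aortic array alone. The probe sets share genes and transcripts, so these counts are not independent.

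With 2 arrays, likeness of pattern comes down to likeness of ratio. Among 1250 genes with every kept probe set above the highest background control on both arrays, those nearest to Igf1 (log2 ratio 1.37) were the integrin Itga1 (1.37), the growth factor Tgfb3 (1.36) and Ddah1 (1.42), which degrades inhibitors of nitric oxide synthase. Tgfb3 and Itga1 were also nearest to the Igfbp3 median (1.36), followed by the transcription factor Tef (1.33). That median is a lower bound set in part by the floor, so which genes lie nearest to Igfbp3 depends on the floor. The Igf1 median is also a lower bound, although it equals the ratio of the probe set above the floor on both arrays. Nearest to Igfbp6 (-1.77) were G0s2, an inhibitor of triglyceride lipase (-1.72), Insig1, which restrains sterol synthesis (-1.70), and the iron-carrier-binding protein Lcn2 (-1.69).

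Downstream of the receptors, of 40 listed genes of IGF and insulin receptor signalling, 28 were on the array and 21 measured, with 2 higher by 2-fold or more on the endocardial array (5.93% of all genes were), 0 lower (4.16% of all genes were), and a median log2 ratio of 0.00. The higher genes were Irs2, an adaptor of both receptors (1.18), and the insulin receptor Insr (at least 2.12-fold). Irs2 had 2413 on the endocardial and 1068 on the aortic array with 1 of its 4 probe sets, the others being under the floor on both. Insr had 1349 on the endocardial and 211.6 on the aortic array. Raising the floor to the highest background control left neither past 2-fold, and 0 of 17 measured genes passed. The lowest ratios were those of Pik3cd, a catalytic subunit of PI 3-kinase (-0.77), and the receptor-binding adaptor Grb14 (-0.77). The kinase Akt1 had a log2 ratio of 0.00 and Mtor of 0.10. The adaptor Irs1 read 475.8 on the endocardial and 789.5 on the aortic array, both under the highest background control.

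In the growth hormone axis, which drives Igf1 transcription in liver, 1 of 7 measured genes was at least 2-fold lower on the endocardial array. None was higher by as much, and the median log2 ratio was -0.06. Over all measured genes, 4.16% were lower and 5.93% higher. The lower gene was Jak2, the kinase that acts at the growth hormone receptor. Its 3 probe sets had 1676, 1604 and 2118 on the endocardial array, and 4052, 3717 and 4901 on the aortic array in the same order. All 3 were lower on the endocardial array, with a median log2 ratio of -1.21, and Jak2 also passed 2-fold with the highest background control as the floor. The growth hormone receptor Ghr was under the floor with all 3 probe sets, and the transcription factor Stat5b had a log2 ratio of 0.52. For the related Stat5a the ratio was bounded at 1.57-fold higher or more, with both readings under the highest background control. The next lowest was the receptor Ghrhr (-0.56). Of the other secreted relatives, Igfals, the partner of Igfbp3 in blood, had a log2 ratio of -0.06 with both values under the highest background control. The matricellular protein Ccn1 had 0.23, and Esm1, a proteoglycan of endothelium, had -0.18, also under that control. None of these 3 measured genes passed 2-fold.

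Of 10 measured proteases that cut binding proteins and their inhibitors, 1 was at least 2-fold higher, 0 were lower and the median log2 ratio was 0.44. Over all measured genes, 5.93% were higher and 4.16% lower. The higher gene was Plat, the tissue plasminogen activator, with 11882 on the endocardial and 3394 on the aortic array (1.81). The urokinase Plau was at least 1.99-fold higher against the floor, with both values under the highest background control. The lowest were the metalloproteinase inhibitors Timp3 (-0.94) and Timp1 (-0.58). The endocardial value of Timp3 was under the highest background control, and with that control as the floor its log2 ratio was -0.55. Among 12 measured genes listed as lysosomal proteins or as ligands of Igf2r, 0 were higher and 1 was lower, with a median of 0.12. The lower was Plaur, the urokinase receptor (at least 3.10-fold against the floor, and at least 1.13-fold against the highest background control). The highest were Tgfb1 (0.91) and the protease cathepsin D, Ctsd (0.89), and the next lowest was cathepsin L, Ctsl (-0.64).

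Of 12 measured matrix and proteoglycan partners, 1 was higher, the phosphoprotein Spp1 (at least 4.01-fold against the highest background control), and 3 were lower, the proteoglycans Dcn (at least 13.9-fold against the floor), Gpc1 (log2 ratio -1.65) and Vcan (-1.19). Over all measured genes, 5.93% were higher and 4.16% lower. The list median was 0.00, and the heparan sulphate proteoglycan Sdc2 (0.81) was the next highest. Of the insulin-like peptides, Ins1 had a log2 ratio of 1.10, Rln1 was at least 1.32-fold higher, and Ins2 had -0.56. The insulin genes, known from pancreatic beta cells, each had 1 probe set above the highest background control on both arrays, out of 3. Ins1 read 4493 on the endocardial and 2102 on the aortic array with that probe set, while its others read at most 249.4 on either array.

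**Figure D3:**
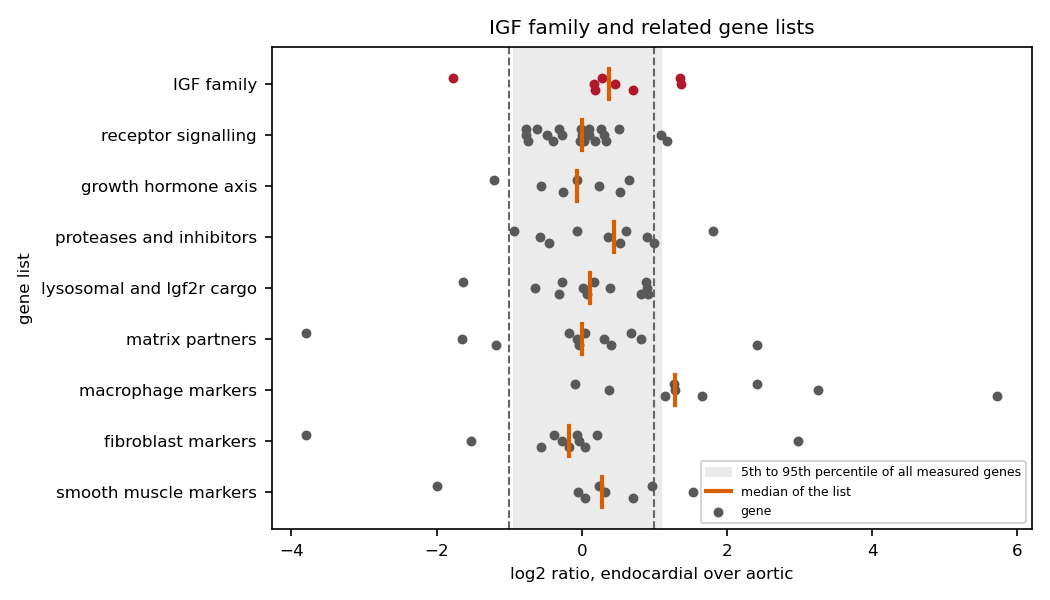
Log2 ratio, endocardial over aortic (horizontal axis), of each measured gene (points) in the IGF family, related lists and marker lists (rows), with list medians as orange bars. Dashed lines mark 2-fold and the grey band spans the 5th to 95th percentile of all measured genes. The receptor signalling median (0.00) lies near that of all genes, the IGF family median is 0.37 and the macrophage marker median is 1.28. Most macrophage markers were kept through the endocardial array alone, so their ratios could only be positive.

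Markers of other cell types differed beside the family, and their part in the Igf1, Igfbp3 and Igfbp6 differences was not tested. Of 10 macrophage markers on the array, 9 were measured, and 7 were higher by 2-fold or more on the endocardial array and 0 lower. Over all measured genes, 5.93% were higher and 4.16% lower. Lyz2, Cd53, Ctss, RT1-Da, Fcgr2b and Mmp12 were kept through the endocardial array alone, so their ratios could only be positive. Cd74 was the other marker past 2-fold. Only its probe set X14254cds_at was above the floor on both arrays, with a log2 ratio of 0.98, under 2-fold. The other Cd74 probe sets were kept through the endocardial array alone. Raising the floor to the highest background control left 2 of 7 measured markers higher by that much, against 3.99% of all genes. These were Lyz2 and Mmp12, again kept through the endocardial array alone. The intensities of the macrophage markers, taken from the brightest probe set of each gene, summed to 58098 on the endocardial and 9602 on the aortic array. Lyz2 alone gave 33619 and 287.8 of these, in the same order. Above the highest background control were 7 of the 10 on the endocardial and 1 on the aortic array. The receptor Csf1r was under the floor on both arrays, and Ptprc, the phosphatase carried by leukocytes, did not exceed the highest background control on either. Fibroblast markers summed to 407313 on the endocardial and 482345 on the aortic array (11 of 12 listed genes). With either floor, 1 of these 11 was higher by 2-fold or more and 2 lower. Smooth muscle markers summed to 215598 and 175409 in the same order (9 of 11 listed genes). Of 8 measured, 1 was higher and 1 lower. The lower, Myh11, was kept through the aortic array alone, and with the highest background control as the floor 0 of 7 were lower. Of 9 endothelial markers on the array, Pecam1, Vwf, Kdr and Icam2 were under the floor on both arrays, with Kdr and Icam2 at or below 0, and of the 5 measured 1 was higher by 2-fold or more and 1 lower. The higher was endothelin, Edn1, with 4095 on the endocardial and 1874 on the aortic array, and the lower was the angiotensin-converting enzyme Ace (log2 ratio -1.16, with an endocardial value under the highest background control). Thbd had 2848 on the endocardial and 3921 on the aortic array. Fewer cells of a type and less RNA per cell cannot be told apart in such cultures. The arrays also differed in fluidics module and scan time, and this cannot be told apart from cell origin.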

How the data were processed

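Intensities, 1 per probe set and array on a linear scale, were deposited by the authors for 1 endocardial and 1 aortic Affymetrix rat U34A array; no source used here names the summarising software. The 59 control probe sets were set aside. The 8740 others were scaled to a shared 2% trimmed mean, floored at their median and compared as log2 ratios, endocardial over aortic. A gene was the median over its kept probe sets. Where a value at or under the floor could move that median, the fold is a lower bound. Of 7006 probe sets with 1 symbol, 6985 matched the RefSeq gene table of GRCr8 by gene identifier and 0 symbols changed; 308 had several symbols and 1426 none.

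With 1 array per group there was no test, and genes were counted at 2-fold. Members, gene lists and markers were chosen with earlier results of these data known. Named genes were all members, list genes past 2-fold, the 2 highest and 2 lowest of each list, and the 3 genes nearest in ratio to each member past 2-fold; Akt1, Mtor, Irs1, Ghr and Igfbp1 were added after their values had been seen, as were single markers. The number of arrays limits the precision. Alternatives covered scaling, floor and the rule for several probe sets. The counting was tested on simulated data with changes larger than 2-fold, planted in bright genes only. That test does not cover dim genes or changes near 2-fold. Python 3.11.15, pandas 2.3.3, SciPy 1.17.1 and statsmodels 0.14.6 were used.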

Additional observations from a re-analysis of the deposited data

How the results depend on the processing

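Igf1 and Igfbp3 higher and Igfbp6 lower on the endocardial array kept their direction under all 10 alternatives. Not all of these could have changed it. With the floor at the 75th percentile (2576) each of the 3 genes was kept through 1 array alone, which fixed its direction. The same held for Igfbp3 with the highest background control as the floor. The log2 ratio ranged from 1.05 to 1.58 for Igf1, from 0.56 to 2.87 for Igfbp3 and from -1.78 to -1.67 for Igfbp6. The ends 1.05, 0.56 and -1.67 include a value set by a floor. The ends 1.58 and 2.87 came with no floor and use aortic readings under 635.4. These ranges are therefore not a spread of measured ratios. The count of members at least 2-fold higher was 1 of 5 for a floor at the 75th percentile, where Igfbp3 no longer passed, because the aortic value is then taken at a higher floor. Over all genes, 45 of 1505 were higher and 40 lower with that floor, 76 of 1904 higher and 45 lower with the highest background control as the floor, and 342 of 3600 higher and 410 lower with no floor, since these change which probe sets are counted. Of 74 ratios of single members recomputed, 66 moved by less than 0.39 on the log2 scale and 8 moved by more, those of Igf2, Igfbp3, Igfbp2 and Igf1r. Leaving out probe sets ending in _i_at or _r_at was chosen after seeing the data. No paired analysis was possible because each group had 1 array. Signal over background limits Igf1r, Igfbp2 and Igfbp5, none of which exceeded the highest background control.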
